A study of Mus musculus with 6 samples.

Results

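Mitochondrial fatty acid oxidation was described here through 40 genes, chosen by symbol for their place in the pathway. They cover the carnitine shuttle, the acyl-CoA dehydrogenases, the trifunctional protein and later steps of the spiral, the electron transfer flavoprotein, thioesterases, and the steps for branched and odd chains. Of these, 39 were found among the 19078 genes of the table. *Eci1* was listed under its older symbol *Dci*, and *Acot1* was not analysed here.

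RNAseq was performed on 3 libraries of *Ms4a15* OE cells and 3 of control cells, all immortalized mouse fibroblasts (MF) grown in DMEM with serum. *Ms4a15* OE cells are a pool of cells in which a CRISPR activation system and a guide raise transcription of *Ms4a15* from its own locus. The genotype label of the control is wild type, while the methods of the study describe cells infected with empty lentivirus. Both groups derive, per those methods, from fibroblasts in which *Gpx4* can be deleted through Cre-ERt2, and both therefore share that background. The 6 libraries are not described as separate cultures.

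The guide of the study was located in the promoter of *Ms4a15* to show what distinguishes the groups. In the promoter window of 300 bases it matched 1 site, on the reverse strand at chr19:10993361-10993380 (GRCm38). This site lies from 130 to 111 bases before the RefSeq start of the gene. Sequence outside the window was not searched. In the line below the guide is in capitals, and its PAM, GGG, follows it as the next 3 letters.

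*Ms4a15* guide site: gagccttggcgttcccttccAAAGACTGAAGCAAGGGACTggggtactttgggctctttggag

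Values were available as the authors' mean of normalized counts over all 6 libraries, which pools *Ms4a15* OE and control. The authors' mean of *Ms4a15* itself was 637.5 normalized counts, and a pooled mean cannot show in which libraries its reads lay. How the fatty acid oxidation genes differ between the groups was therefore not tested here, and every level below is a description of both groups together. A level can also be set by reads of only some libraries, and fewer cells of a kind cannot be told apart from less RNA per cell. Summed over all genes the means came to 4.10e+07 normalized counts per library. The size factors, which correct for depth, ran from 0.887 to 1.14.

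Mitochondria burn fatty acids by a spiral of repeated steps. Long chains first cross the inner membrane as carnitine esters, through carnitine palmitoyltransferase 1 on the outer membrane, a carrier, and carnitine palmitoyltransferase 2 on the inner side. In the matrix each turn removes an acetyl-CoA by dehydrogenation, hydration, a further dehydrogenation and thiolysis, and the electrons of the initial step pass through the electron transfer flavoprotein to the respiratory chain. Malonyl-CoA, the building block of fatty acid synthesis, inhibits carnitine palmitoyltransferase 1. Liver, heart and brown fat are known for high rates of this pathway, and proliferating fibroblasts are not.

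Of 11 fibroblast markers 8 were at or above the median gene per kilobase, and the other 3 were *Pdgfra*, at 278 normalized counts or 27.7 per kilobase, *Dcn* and *Lum*. The authors' means were 135155 normalized counts for the collagen gene *Col1a2* and 115135 for vimentin, *Vim*, but 12.1 for decorin, *Dcn*, and 0.675 for lumican, *Lum*, both markers of resting fibroblasts in tissue. Of 8 epithelial markers 0 reached the median level per kilobase of all genes, with *Epcam* at 0.176 normalized counts. The highest of them, *Krt14*, had 170 normalized counts, or 96.9 per kilobase against 117 for the median gene. The adipocyte markers *Adipoq* and *Ucp1* stood at 0.364 and 0.314, and 0 of 5 adipocyte and 0 of 4 endothelial markers reached the median gene. Of 5 myeloid markers 2 reached it, *Lyz2* and *Cd68*, while *Csf1r* had 13.2 normalized counts. Of 3 markers of striated muscle 1 reached it, *Tnnt2*, at 5787 normalized counts. What part, if any, other cells had in the levels below was not tested.

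Most of the fatty acid oxidation genes stood above the median of all listed genes, but fewer of them stood above that of the genes with at least 10 normalized counts. Because longer transcripts give more reads, levels were compared between genes only after division by length. The length used was the sum of all exon bases that the GENCODE annotation gives for the gene. On this scale 32 of 39 members were at or above the median gene, which had 117 normalized counts per kilobase. With the longest transcript 33 members were, against a median gene of 158, and on coding length 27, against 394. With the exon sum and genes under 1 normalized count left out, 25 of 39 members were at or above the median. When genes under 10 normalized counts were left out, 18 of the 37 members kept were at or above it, and 16 of 36 when genes under 100 were left out. The median member had 269 per kilobase and lay above 63.2% of all genes with a length. The lower and upper quartiles of the members were 148 and 603 per kilobase, and the upper quartile of all genes was 512. On the exon sum 5 members exceeded 1000 per kilobase, 28 lay between 100 and 1000, and 6 lay under 100. Of all genes with a length, 86.0% lay below *Acadvl*, at 972 per kilobase, and 90.8% below *Etfb*, at 1481. Near the lower bound, 46.3% lay below *Cpt1c*, at 85.4, and 48.5% below *Slc25a20*, at 104. Without division by length, 34 members were at or above the median of all listed genes (26, 19 and 13 with the same genes left out). The members together took 0.152% of all normalized counts.

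The order of the members depends in part on the length chosen. Of 741 pairs of members, 634 had the same order with the exon sum, with the longest transcript and with the coding length. Orders are stated below only where they held for all of these, unless the exception is given.

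**Figure D1:**
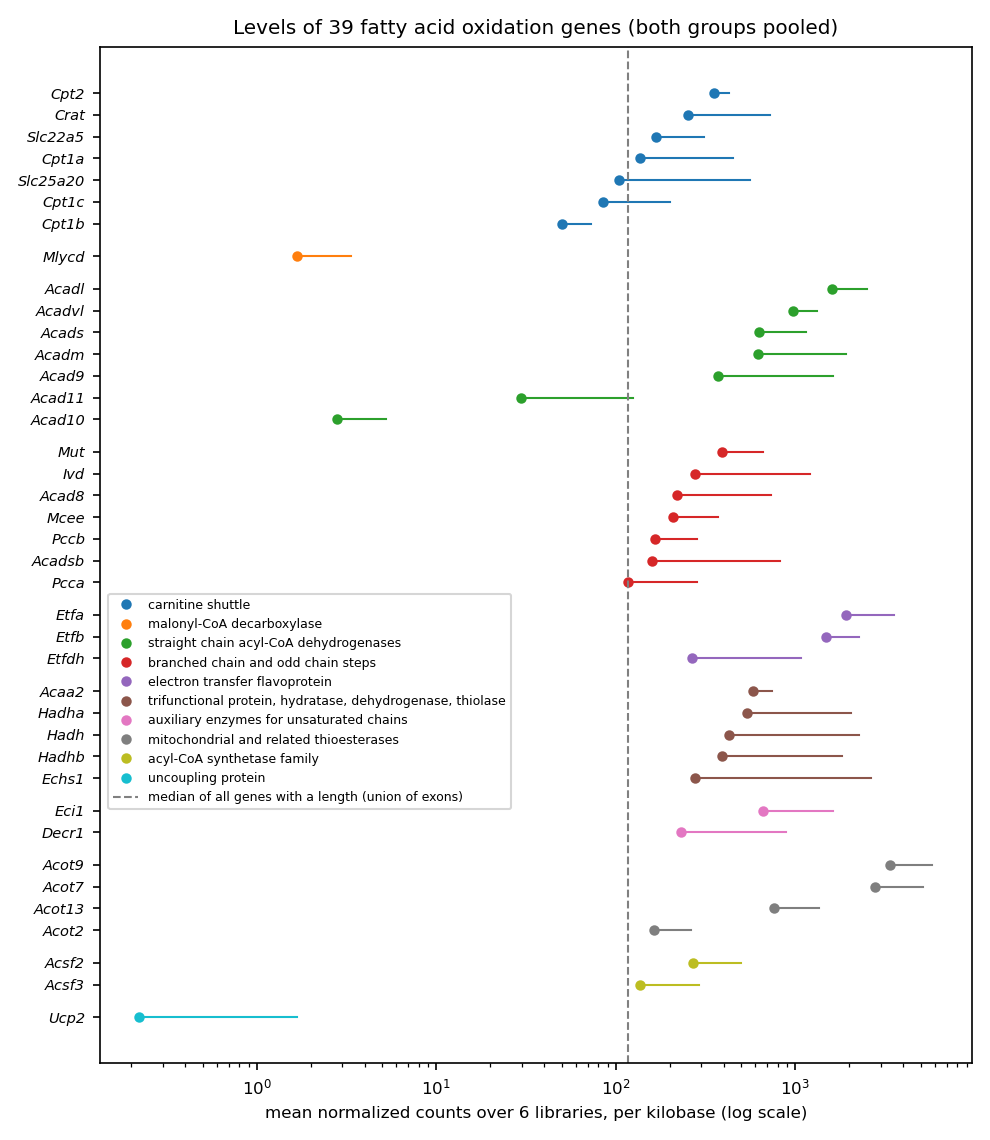
Levels of the 39 listed members, grouped by role, as the authors' mean of normalized counts over 6 libraries divided by length in kilobases (log axis). Points use the sum of exon bases, lines span the values with the 3 lengths, and the dashed line is the median of all genes on the exon sum, 117 per kilobase. It applies to the points only, since the median was 158 with the longest transcript and 394 on coding length. *Ucp2*, *Mlycd* and *Acad10* lie far to the left of all others, and *Acot9* and *Acot7* lie farthest to the right.

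The carnitine shuttle had a median of 136 per kilobase over its 7 members. This was below the medians of the dehydrogenases, the electron transfer flavoprotein and the later steps of the spiral with each of the 3 lengths. *Cpt2*, the inner carnitine palmitoyltransferase, stood at 353 per kilobase. *Crat*, which esterifies short chains to carnitine, stood at 251, and *Slc22a5*, the plasma membrane carrier that takes up carnitine, at 168. *Slc25a20*, the carrier that brings acylcarnitines through the inner membrane, was at 104 per kilobase, just under the median gene. Its place depends on the length, since on coding length it had 558 per kilobase and exceeded *Cpt2*, at 427. The median gene on coding length had 394. On that length *Crat*, at 720, was the highest of the 7, and *Cpt1a*, at 448, was also above *Cpt2*.

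All 3 genes of carnitine palmitoyltransferase 1 had reads. *Cpt1a*, the liver isoform found in most tissues, had an authors' mean of 1038 normalized counts, or 136 per kilobase. *Cpt1c*, the brain isoform with little activity of its own, had 478 normalized counts, or 85.4 per kilobase. *Cpt1b*, the muscle isoform, had 169 normalized counts, or 50.0 per kilobase. The order was thus *Cpt1a*, *Cpt1c*, *Cpt1b* with each of the 3 lengths. *Cpt1a* took 50.1% of the family's level per kilobase, with a counting interval from 49.1% to 51.1%, and 62.2% on coding length. *Cpt1c* took 31.5%, and 27.7% on coding length. *Cpt1b* took 18.4%, and 10.1% on coding length. Exons of *Cpt1b* (chr15:89416405-89425863, reverse strand) share bases with the annotated gene *Gm44502* on the same strand, so its count is uncertain.

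On both sides of malonyl-CoA the levels were uneven. *Acaca*, the cytosolic acetyl-CoA carboxylase that makes malonyl-CoA for synthesis, had 582 per kilobase, against 36.1 for *Acacb*, the isoform on the outer mitochondrial membrane. The ratio was 16.1, and it was between 16.1 and 29.8 over the 3 lengths. *Mlycd*, the decarboxylase that removes malonyl-CoA, had only 4.94 normalized counts, or 1.66 per kilobase. *Mlycd* lies on the forward strand at chr8:119394878-119411102.

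For some genes with so low a mean the reads can be counted, where only 1 set of whole reads gives the mean, as it did for *Mlycd* and *Ucp2*. The 30 reads of *Mlycd* fell as 7, 6, 3, 5, 5 and 4 on the 6 libraries, taken in order of falling size factor. *Mlycd* was thus detected in every library, with between 3 and 7 reads. *Ucp2*, an inner membrane carrier of the uncoupling protein family at chr7:100493337-100502020, had a mean of 1.55 normalized counts. Its 9 reads fell as 0, 1, 3, 0, 3 and 2 in the same order of libraries. *Ucp2* had reads in 4 of the 6 and 0 reads in the others. A count of 0 still allows an expected count of up to 3. Which library belongs to which group was not inferred. *Ucp1* and *Ucp3* had 2 and 7 reads in all libraries together. Exons of *Ucp2* overlap those of *Dnajb13* on the other strand.

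**Figure D2:**
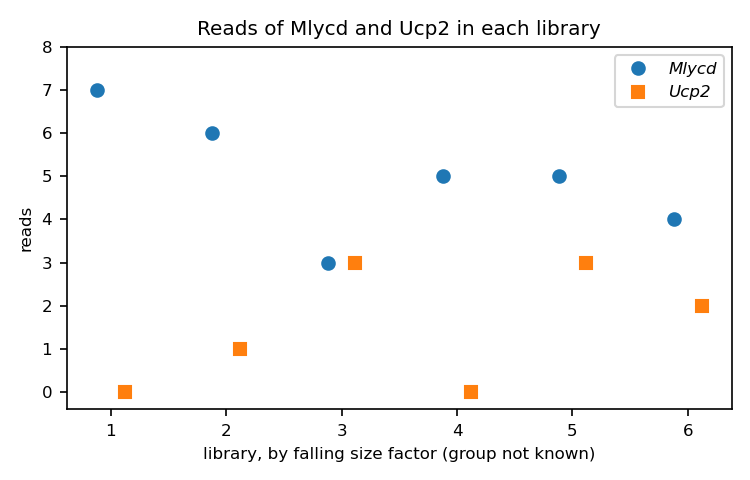
Reads of *Mlycd* and *Ucp2* in each of the 6 libraries, ordered by falling size factor from left to right. *Mlycd* has 3 to 7 reads in every library, while *Ucp2* has 0 to 3.

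The acyl-CoA dehydrogenases of straight chains ranged from high levels down to the very low level of *Acad10*. *Acadl*, for long chains, had 1612 per kilobase, above 91.8% of all genes. *Acadvl*, for very long chains, had 972 per kilobase. *Acads*, for short chains, and *Acadm*, for medium chains, had 628 and 622, and their order changed with the length. *Acad9*, which also serves in the assembly of respiratory complex I, had 369. On coding length *Acadm*, at 1927, and *Acad9*, at 1613, stood above *Acadvl*, at 1327. *Acad9* was also above *Acads* with the longest transcript, at 770 against 705, and on coding length, where *Acads* had 1153. *Acadl* was above *Acadvl* by 1.40 to 1.89 times over the 3 lengths, and above *Acadm* by 1.30 to 2.59 times. The atypical members *Acad11* and *Acad10* had 29.6 and 2.79 per kilobase. *Acad11* had 290 normalized counts, and 83.7 per kilobase with the longest transcript and 124 on coding length. It was below the median gene with each of the 3 lengths. That gene had 117 with the exon sum, 158 with the longest transcript and 394 on coding length. *Acad10* stood 252 to 349 times below *Acadvl* over the 3 lengths, on an authors' mean of 16.9 normalized counts. Exons of *Acad9* share bases with the annotated gene *Gm43079*, and those of *Acad11* with *Gm28305*, on the same strand. The counts of *Acad9* and *Acad11* are therefore uncertain.

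Electrons leave these dehydrogenases through the electron transfer flavoprotein, whose subunits *Etfa* and *Etfb* were among the 5 highest members on the exon sum. *Etfa* had 1920 per kilobase and *Etfb* 1481. *Etfdh*, the oxidoreductase that hands the electrons to ubiquinone, had 265, which was 3.27 to 7.24 times below *Etfa* over the 3 lengths. The ratio of *Etfa* to *Etfb* was 1.30, with a counting interval from 1.27 to 1.33. Exons of *Etfb* share bases with the annotated genes *Mir7051* and *Gm45233* on the same strand, so its count is uncertain.

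The later steps of the spiral lay between 278 and 585 per kilobase on the exon sum, and between 744 and 2644 on coding length. *Acaa2*, the matrix thiolase for medium chains, had 585, the highest of the 5 on the exon sum, and 744 on coding length, the lowest. *Hadha* and *Hadhb*, the subunits of the trifunctional protein, had 537 and 392. *Hadh*, the dehydrogenase for shorter chains, had 429, and *Echs1*, the short chain hydratase, had 278. On coding length *Echs1* had 2644 and stood above the other 4. Of the auxiliary enzymes for unsaturated chains, the isomerase *Eci1* had 664 per kilobase and the reductase *Decr1* 231. *Eci1* was 1.83 to 4.10 times higher over the 3 lengths.

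*Hadha* and *Hadhb* lie head to head, with RefSeq starts 273 bases apart. *Hadha* is on the reverse strand of GRCm38 at chr5:30118304-30155162 and *Hadhb* on the forward strand at chr5:30155248-30184593. The stretch of 85 bases between their outermost annotated starts, at chr5:30155163-30155247, is shown on the forward strand as the sequence that separates them. Capitals mark GGGCGG, the core of an SP1 site, found at bases 1 to 6 and 66 to 71. A match of these letters is a description and not a site.

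*Hadha* to *Hadhb*: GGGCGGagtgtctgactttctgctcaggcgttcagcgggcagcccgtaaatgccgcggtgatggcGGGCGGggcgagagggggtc

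The ratio of *Hadha* to *Hadhb* was 1.37 per kilobase of exon, with a counting interval from 1.34 to 1.40. It was 1.98 with the longest transcript and 1.13 on coding length, so *Hadha* was the higher each time. For the subunits of propionyl-CoA carboxylase, which takes up the end product of odd chains, no order can be given. *Pcca* to *Pccb* was 0.711, but 1.20 with the longest transcript and 0.999 on coding length.

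**Figure D3:**
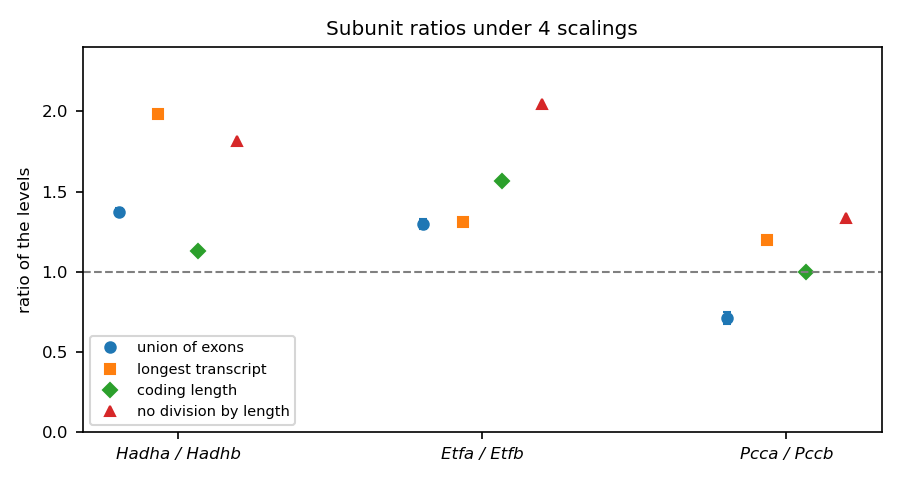
Ratios of the levels of 3 subunit pairs, computed with 3 lengths and without division by length. Error bars on the exon-sum points are 95% counting intervals and are about as small as the points; the dashed line is a ratio of 1. *Hadha* to *Hadhb* and *Etfa* to *Etfb* stay above 1, while *Pcca* to *Pccb* falls on both sides of it.

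The other 5 branched and odd chain steps lay between 160 and 390 per kilobase. *Mut*, the methylmalonyl-CoA mutase, had 390, and the epimerase before it, *Mcee*, 208. *Mut* was the highest on the exon sum, but *Ivd* was with the longest transcript, at 417, and on coding length, at 1201. The dehydrogenases of leucine, valine and isoleucine breakdown, *Ivd*, *Acad8* and *Acadsb*, had 277, 220 and 160. *Ivd* was above both others with each length, by 1.26 to 1.63 times over *Acad8* and 1.46 to 2.21 times over *Acadsb*.

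The thioesterases, which release free fatty acids from CoA, held the 2 highest members. *Acot9*, a mitochondrial enzyme, had an authors' mean of 7641 normalized counts, or 3362 per kilobase, above 96.6% of all genes. *Acot7*, which acts mainly in the cytosol, had 5919 normalized counts, or 2787 per kilobase. *Acot9* was above *Acot7* by only 1.11 to 1.21 times over the 3 lengths, and together they took 21.8% of the members' summed mean. *Acot13* had 761 per kilobase, and *Acot2*, the matrix enzyme for long chains, 163. *Acot10*, a close relative of *Acot9*, had 19.3 normalized counts, and how reads that could fit both genes were counted was not tested. *Acot3* and *Acot6*, which lie in the cluster of *Acot2*, had 6 and 11 reads in all. Because *Acot1* was not analysed, how reads that could fit both *Acot1* and *Acot2* were counted was not tested either. Of the acyl-CoA synthetase family members, *Acsf2*, for medium chains, had 269 per kilobase and *Acsf3*, the mitochondrial malonyl-CoA synthetase, had 136.

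The 6 related lists had medians between 159 and 425 per kilobase, and 4 of them held genes under 10 normalized counts. Peroxisomal beta-oxidation had a median of 159 per kilobase over 16 genes, with 10 at or above the median gene. Its highest on the exon sum was *Hsd17b4*, at 808 per kilobase, and its lowest *Acaa1b*, with 2 reads in all. Of the long chain acyl-CoA synthetases, which activate fatty acids before the shuttle, *Acsl5* was the highest at 2109 per kilobase and *Acsl6* the lowest with 2 reads. In ketone body metabolism *Oxct1*, which activates acetoacetate for use, was the highest at 6920 per kilobase. Of 8 transcriptional regulators 6 were analysed, between 38.2 per kilobase for *Ppargc1b* and 623 for *Rxrb*. *Rxrb* was the highest on the exon sum, but *Rxra* was on coding length, at 1798 against 1574. Differences between the lists were not tested.

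**Figure D4:**
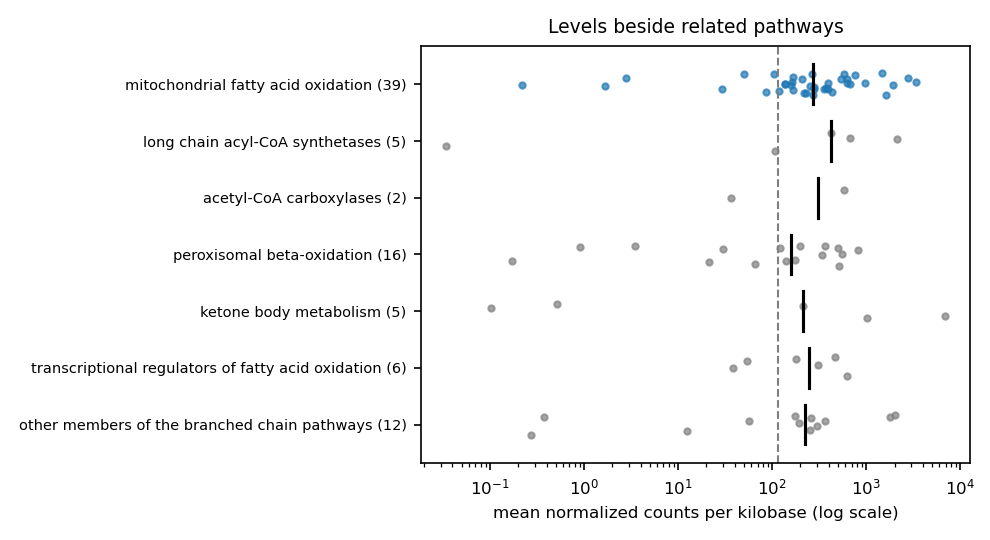
Levels per kilobase (log axis) of the 39 listed members in blue and of 6 related gene lists in grey, with the number of genes in brackets. Each black bar is the median of its list and the dashed line the median of all genes; the bar of the members lies at 269.

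Promoter windows were compared as a feature that the choice of genes did not use. RefSeq windows from 250 bases before to 50 after the start were found for 32 members and 11208 listed genes. Where a gene had several windows, only the one farthest upstream was used. Whether these starts serve in these cells was not tested. The ratio of observed to expected CpG had a median of 0.695 in the members and 0.713 in all. GGGCGG was found on either strand in 22 of 32 members, or 68.8%, against 58.0% of all. CCAAT was found in 15, or 46.9%, against 38.8%, and TATAAA in 1, *Acot9*, against 8.54%. The exact repeat of AGGTCA with 1 base between, the consensus for PPAR with RXR, was found in 0 members and in 0.0535% of all. GCGCA and GCGC with 1 base between, the core read by NRF1, were found in 5 members, or 15.6%, against 8.83%. These shares were not tested.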

How the data were processed

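The libraries, 3 of *Ms4a15* OE and 3 of control cells, were made from poly(A)-selected RNA. Per the paper's methods the authors aligned the reads to mm10 with STAR and counted them per gene of UCSC knownGene with HTSeq-count, whereas the submitters' processing notes name TopHat. As signal the authors deposited, for each gene, its counts after division by DESeq2 size factors, averaged across the 6 libraries. The table also holds the authors' own comparison of the groups (log2 fold changes, standard errors, p-values and a direction), none of which was used. Because it holds no column of single libraries, the planned edgeR test was not run and no replicate error is given.

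Members and lists were chosen with earlier results of these data known. All members could be named, and of other lists the highest and lowest genes. Other genes of those lists, named under other observations, fall outside this rule. The level of 1 gene is not reported here. Symbols were matched to GENCODE vM21 (GRCm38, the build of mm10), also through older names in RefSeq, for 16133 genes (84.6%). Older names were at first used for the named lists alone (14653 genes, 76.8%) and were extended to all genes after the levels had been seen. Means were divided by the sum of exon bases, with the longest transcript, the coding length (from the annotation) and no division as alternatives. Size factors were read from 1267 genes with 1 read in 1 library. Means under 6 were solved for whole reads within 2e-08. On simulated means, 68 of 100 genes with up to 30 reads had a single solution. The tolerance there always included the true reads, so a single solution had to be right and is no check of the real genes. Counting intervals (95%, exact Clopper-Pearson on means times libraries) cover counting error only. The floor is 3 counts. Of the 39 members, 4 (*Cpt1b*, *Acad9*, *Acad11* and *Etfb*) share exon bases with another gene on the same strand and 10 with a gene on the other strand. The strand setting of the count is not given in the sources used here. Computations used Python 3.11.15, numpy 2.4.6, pandas 2.3.3, scipy 1.17.1 and matplotlib 3.10.9.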

Additional observations from a re-analysis of the deposited data

How the results depend on the processing

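No paired analysis was possible because the means pool all 6 libraries. For the same reason the planned comparison of the groups was not run under other normalizations, edgeR's filter on low counts, DESeq2 or leaving out each replicate, and the share of *Acot2* was not run because *Acot1* was not analysed. Of 23 values recomputed, 7 stayed within their counting interval or within 1.5 times the count.

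The 32 members at or above the median gene per kilobase became 25 of 39 when genes under 1 normalized count were left out. They became 18 of 37 when genes under 10 normalized counts were left out and 16 of 36 under 100. The 34 without division by length became 26, 19 and 13. These falls follow from a higher median once low genes are left out. With all genes kept, the 32 became 33 with the longest transcript and 27 on coding length. With older names matched for the named lists alone, an alternative chosen after seeing the data, 31 members were at or above the median gene, which then had 121 per kilobase. The members' share of 0.152% became 0.160% without the 10 highest genes. *Cpt1a* took 50.1% of its family with the exon sum, 54.0% with the longest transcript, 62.2% on coding length and 61.6% undivided. *Hadha* to *Hadhb* went from 1.37 to 1.98, 1.13 and 1.82 in that order, and *Etfa* to *Etfb* from 1.30 to 1.57 on coding length and 2.04 undivided. *Pcca* to *Pccb* turned from 0.711 to 1.20 with the longest transcript and 1.34 undivided, and was 0.999 on coding length. The length by construction sets these changes.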

Other observations

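Partner subunits in leucine and branched chain breakdown were far apart in level, in pairs of genes singled out after their values were seen. *Bckdhb*, a subunit of the branched chain ketoacid dehydrogenase, had 3 reads in all 6 libraries together, while its partner *Bckdha* had an authors' mean of 364 normalized counts and the core subunit *Dbt* 1230. *Mccc1*, a subunit of methylcrotonyl-CoA carboxylase, had 26 reads, which fell as 6, 7, 6, 4, 3 and 0 on the libraries in order of falling size factor, while *Mccc2* had a mean of 488 normalized counts. Per kilobase *Mccc1* was at 0.379 and *Mccc2* at 174. *Ivd*, the step before it in leucine breakdown, was at 277. What lies behind the low values was not tested.

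In the peroxisome, *Ehhadh*, the bifunctional enzyme for straight chains, had 16 reads in all. *Hsd17b4*, which carries out the same steps, had an authors' mean of 2749 normalized counts. The contrast of these genes was not planned.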
